A study of Rattus norvegicus and Mus musculus with 12 samples.

Results

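The BCL2 family apoptosis genes described here are 10 genes, namely Bcl2, Bcl2l1, Mcl1, Bcl2l11, Bax, Bak1, Bbc3, Pmaip1, Bid and Bad, found by gene name in the tables of counts and FPKM (read counts scaled by gene length and by the total of the library). All 10 had a row among the 28603 genes of the mouse table. The rat table of 19687 genes gave a row by name for 8 of them, and Mcl1 and Bbc3 were not analysed in rat here. Every member with a row passed the filter on low counts, so 8 members were tested in rat and 10 in mouse.

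The libraries came from articular chondrocytes, the cells that make and maintain cartilage matrix, at passage 1, taken from newborn rats of the Sprague–Dawley strain (SD) or newborn mice of the C57BL/6 strain. The RC group (rat control) and the MC group (mouse control) received no cytokine, and the RM and MM groups (rat and mouse model) had IL-1β added at 20 ng/ml for 24 h. Each group had 3 libraries, described in the study as independent samples. The strain labels of the mouse libraries give 3 different substrain numbers within MC and 3 within MM, while the methods give C57BL/6 for all of them. The comparison of model with control in each species asks how these genes responded to an inflammatory stimulus often used to imitate osteoarthritis in culture.

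BCL2 family proteins decide whether the outer mitochondrial membrane is opened, the step that releases cytochrome c and starts the caspase cascade. Anti-apoptotic members hold the pore-forming effectors Bax and Bak1 in check, and BH3-only proteins release that check or activate the effectors directly. The BH3 motif, a short helix, is the part by which one member binds the groove of another. Transcript levels alone do not give the activity of these proteins, many of which are regulated by cleavage, phosphorylation or turnover.

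The BH3 motif is the feature that joins the 3 arms of the family, so the coding sequence of its core is shown for 9 mouse members, read from the GENCODE M21 transcripts on GRCm38. Each stretch covers 9 codons and is given 5′ to 3′ on the strand of the gene, with the codon of the conserved leucine and the codon of the conserved aspartate in capitals. The position, strand and exon of each stretch stand beside the name.
Bcl2, anti-apoptotic (chr1:106712575-106712601, minus strand, exon 1 of 2): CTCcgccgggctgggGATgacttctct
Bcl2l1, anti-apoptotic (chr2:152829697-152829723, minus strand, exon 2 of 3): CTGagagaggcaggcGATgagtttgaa
Mcl1, anti-apoptotic (chr3:95659436-95659462, plus strand, exon 1 of 3): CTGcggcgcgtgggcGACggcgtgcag
Bax, effector (chr7:45465997-45466023, minus strand, exon 3 of 6): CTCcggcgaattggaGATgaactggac
Bak1, effector (chr17:27022531-27022557, minus strand, exon 4 of 6): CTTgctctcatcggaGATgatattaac
Bcl2l11, BH3-only (chr2:128147150-128147176, plus strand, exon 3 of 4): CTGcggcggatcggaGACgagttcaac
Bbc3, BH3-only (chr7:16313773-16313799, plus strand, exon 3 of 4): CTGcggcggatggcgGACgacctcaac
Bid, BH3-only (chr6:120897289-120897315, minus strand, exon 4 of 6): CTCgcccaaataggcGATgagatggac
Bad, BH3-only (chr19:6950792-6950818, plus strand, exon 3 of 4): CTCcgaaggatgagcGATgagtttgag
The pattern searched was a leucine, 3 residues of any kind, a small residue and an aspartate within 9 residues. It was found 1 time in each of these 9 coding sequences. The coding sequence of Pmaip1 was not searched.

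The data behind these genes were 20169272 to 25903459 counts per rat library and 16841580 to 20048322 per mouse library, so that 3 counts corresponded to 0.116 to 0.178 CPM. The TMM factors were 0.994 to 1.01 in rat, but 1.10 in MC and 0.905 to 0.911 in MM, and the choice between TMM and the library size alone moved the centre of the mouse changes, the median over all genes tested, from -0.02 to -0.30 on the log2 scale. Mouse changes below are on the TMM scale unless stated, whereas FPKM follow the library size, so a mouse gene with an unchanged FPKM has a positive log2 fold change. The biological coefficient of variation was 0.106 in rat and 0.0318 in mouse, so changes of a given size passed the test more readily in mouse.

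All 8 chondrocyte marker genes were lower in the model group of both species, with their summed FPKM at 4122 to 4809 in RC, 1466 to 1514 in RM, 2008 to 2061 in MC and 177 to 191 in MM. The summed FPKM of 8 macrophage and leukocyte markers was 19.6 to 23.1 in RC, 31.0 to 33.5 in RM, 5.71 to 6.21 in MC and 32.1 to 33.7 in MM, carried mostly by Cd14 and Cd68, which rose in both species. In rat 2 other markers of this list fell, Laptm5 by 1.61 and Csf1r by 1.20 on the log2 scale, and Ptprc, which defines leukocytes, was at most 0.0559 on average in any group. The summed FPKM of 7 fibroblast markers was 3726 to 4273 in RC, 2348 to 2471 in RM, 3298 to 3335 in MC and 1110 to 1123 in MM, with 4 markers lower and 3 not called in rat, and 5 lower and 2 higher in mouse. The 2 higher in mouse were Col3a1 (0.16) and Pdgfra (0.26), and with the library size alone Col3a1 was called lower (-0.12) and Pdgfra was not called (-0.02). Endothelial markers summed to at most 0.793. Muscle markers summed to 6.56 to 7.45 in RC, 3.98 to 4.53 in RM, 5.67 to 6.77 in MC and 0.421 to 0.888 in MM. In bulk samples fewer cells of a type and less RNA per cell cannot be told apart, and the part of these shifts in the results below was not tested.

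**Figure D1:**
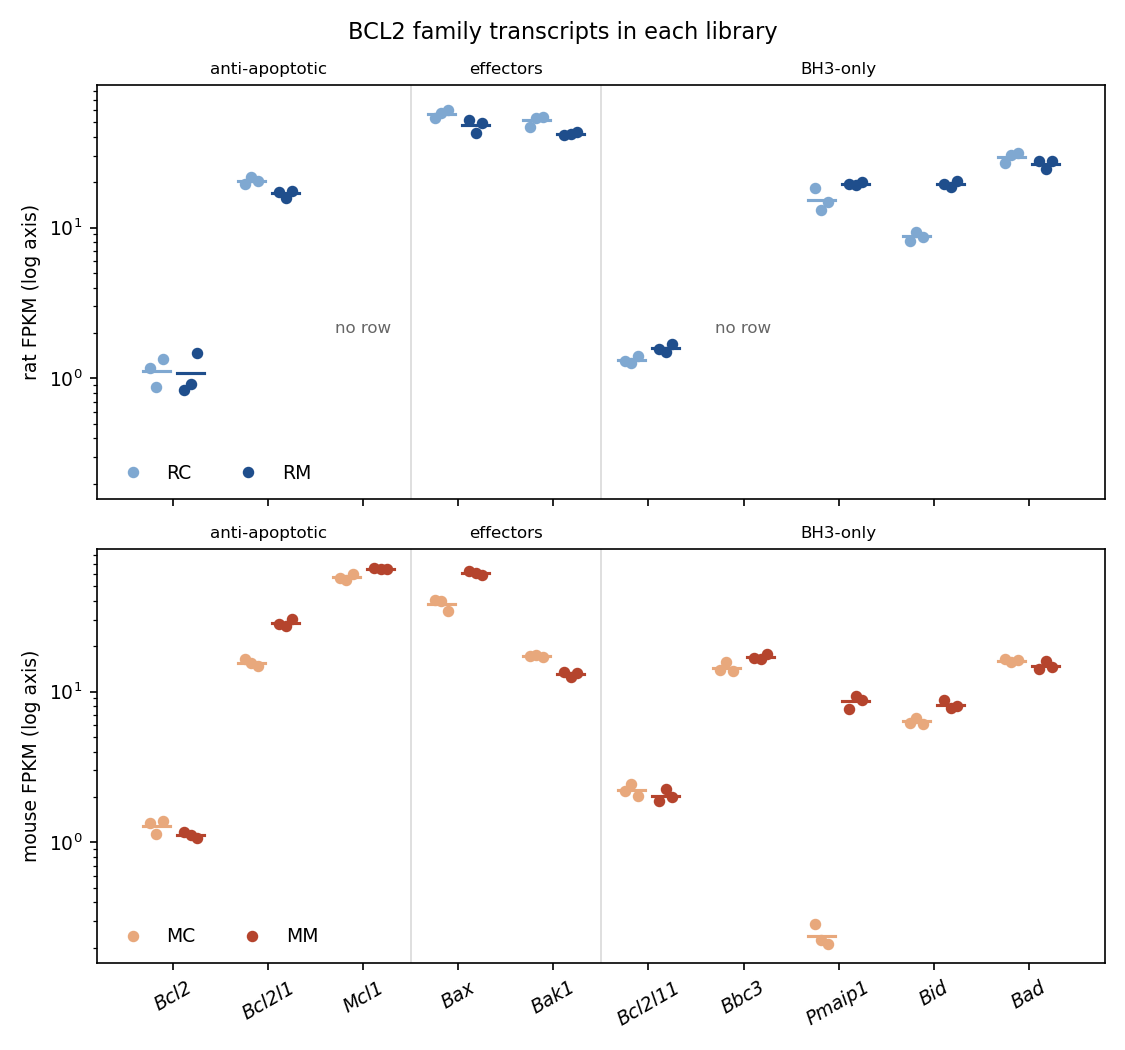
FPKM of the members in each library (log axis), for rat above and mouse below, with points for libraries, horizontal bars for the mean of 3 libraries, and members ordered as anti-apoptotic, effectors and BH3-only. Bax and Bak1 were the highest rat members in both groups, Mcl1 and Bax the highest mouse members in both groups, and mouse Pmaip1 moved from the lowest level of all in MC to 8.59 in MM.

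Control chondrocytes of both species held the effector Bax at a high level and Bcl2 at a low level. The effector Bak1 was high in RC (mean FPKM 51.3), but in MC it averaged 17.2, close to Bad at 16.05. FPKM rest on the annotation and gene lengths of each species, so levels and ranks set side by side across species are a description only. In RC the order by mean FPKM was Bax, Bak1, Bad, Bcl2l1, Pmaip1, Bid, Bcl2l11 and Bcl2. The libraries of Bax and Bak1 overlapped, as did those of Bcl2l11 and Bcl2, and all other neighbours in this order were apart. In MC the order was Mcl1, Bax, Bak1, Bad, Bcl2l1, Bbc3, Bid, Bcl2l11, Bcl2 and Pmaip1, in which Bad overlapped Bcl2l1, and Bcl2l1 overlapped Bbc3. The clearest change of place was that of Pmaip1, at rank 5 of 8 in RC and last of 10 in MC. Mcl1 stayed first in MM, where Bcl2l1 had moved above Bad and Bak1 and no longer overlapped Bbc3. In RM Bid had moved above Bcl2l1, and its libraries overlapped those of Pmaip1.

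In rat, 2 of the 8 members rose with IL-1β (Bid and Pmaip1) and 3 fell (Bcl2l1, Bax and Bak1). Over all genes tested, 18.3% were called higher in RM and 16.8% lower. In mouse, 7 of the 10 members rose (Pmaip1, Bcl2l1, Bax, Bid, Bbc3, Mcl1 and Bad) where 37.4% of all genes were called higher and 37.7% lower. For lower members in mouse the count was 0 by edgeR, also at an unadjusted p under 0.05, 0 by DESeq2 and 1 by limma on FPKM (Bak1). The median log2 fold change of the members was -0.12 in rat and 0.49 in mouse, beside 0.01 and -0.02 over all genes tested. With the library size alone, Bad no longer passed and turned to -0.11 in mouse, and Bak1 was called lower, while over all mouse genes the calls went from 5521 higher and 5564 lower to 3697 and 8077. By the criteria of the study, Bid passed in rat and Bcl2l1, Bax and Pmaip1 passed in mouse, where 8.54% of rat genes and 25.6% of mouse genes passed in either direction.

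**Figure D2:**
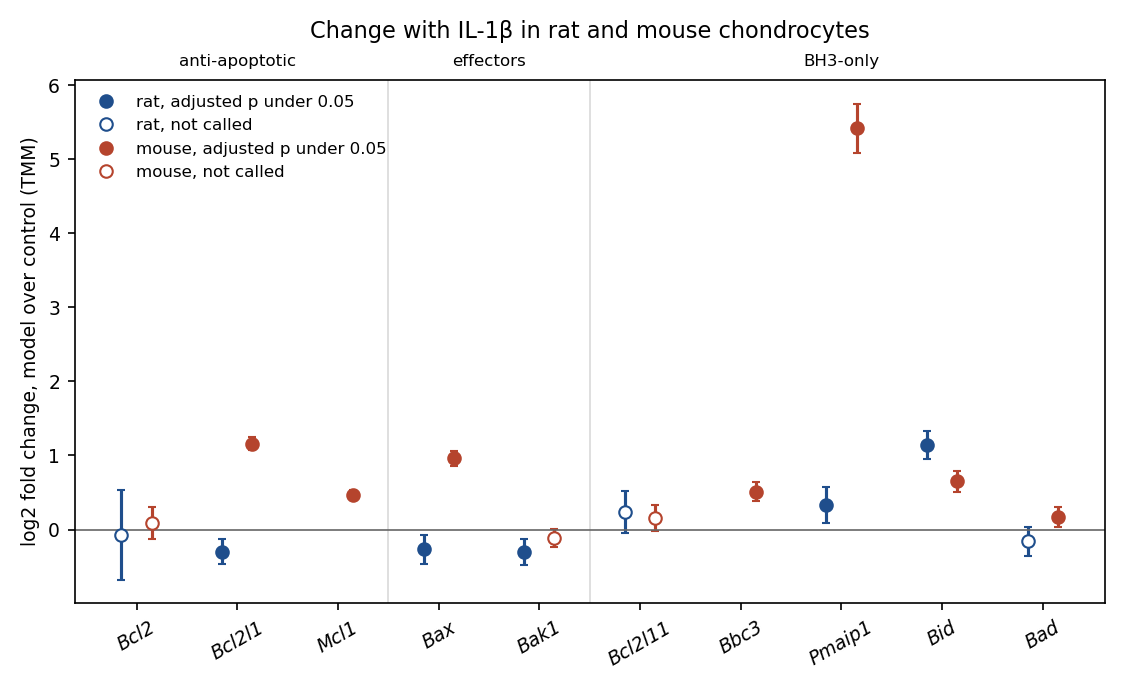
Log2 fold change of model over control for each member (TMM scale), with rat in blue and mouse in red, bars for the 95% confidence interval of the edgeR fit, and filled points for an adjusted p under 0.05. Rat members lie between -0.31 and 1.14, and the mouse point of Pmaip1 stands at 5.42, far above the others.

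Among the anti-apoptotic members, Bcl2l1 (encoding BCL-XL, which binds both effectors and BH3-only proteins) moved in opposite directions in the species. Its rat FPKM was 19.5, 21.6 and 20.4 in RC and 17.3, 15.8 and 17.4 in RM. The groups did not overlap, and the log2 fold change was -0.30 (SE 0.08, edgeR adjusted p = 0.0115). Its mouse FPKM was 16.4, 15.5 and 14.7 in MC and 28.1, 27.1 and 30.3 in MM. Every MM library lay well above every MC library, with a log2 fold change of 1.16 (SE 0.04, edgeR adjusted p = 1.82e-33), or 2.23-fold. The fall in rat lost its call without RM2 (adjusted p = 0.0679), the RM library with the lowest Bcl2l1.

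Mcl1, a short-lived anti-apoptotic protein, was the most abundant member in mouse. Its FPKM was 56.5, 54.7 and 60.4 in MC and 65.8, 64.8 and 64.6 in MM. The 3 MM libraries lay close together and above all MC libraries. The log2 fold change was 0.46 (SE 0.03, edgeR adjusted p = 5.12e-19), and it was 0.18 with the library size alone (adjusted p = 2.32e-06). Mcl1 thus rose by less than Bcl2l1 on either scale.

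Bcl2, the founding member of the family, was near the bottom of both species and was called in neither. In rat its FPKM was 1.17, 0.879 and 1.34 in RC and 0.844, 0.920 and 1.48 in RM, from 35 to 73 counts per library. The groups overlapped fully, and the 95% interval of the log2 fold change ran from -0.68 to 0.53. The rat data thus remain compatible with a change of either sign within this range. In mouse its FPKM was 1.34, 1.14 and 1.39 in MC and 1.18, 1.12 and 1.07 in MM. The log2 fold change was 0.08 (95% interval -0.13 to 0.30) and turned to -0.20 with the library size alone, without passing the test on either scale.

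Of the effectors, Bax also moved in opposite directions. Its rat FPKM was 53.3, 57.1 and 59.9 in RC and 51.4, 42.6 and 49.1 in RM, with no overlap but a gap smaller than the spread within either group. The log2 fold change was -0.27 (SE 0.09, edgeR adjusted p = 0.0376), and the call was lost without RC2, RC3, RM2 or RM3, with adjusted p values from 0.0682 to 0.172. In mouse the FPKM was 40.2, 40.0 and 34.2 in MC and 62.5, 61.2 and 59.5 in MM. All MM libraries were far above the MC libraries, with a log2 fold change of 0.96 (SE 0.05, edgeR adjusted p = 2.02e-27).

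Bak1, the other pore-forming effector, fell in rat and was near the threshold in mouse. Its rat FPKM was 46.7, 53.2 and 54.1 in RC and 41.4, 41.8 and 42.8 in RM. The RM libraries were tightly grouped below all RC libraries, with a log2 fold change of -0.31 (SE 0.08, edgeR adjusted p = 0.0117), a call lost without RC3 (adjusted p = 0.0547) or RM1 (0.0544). In mouse the FPKM was 17.2, 17.5 and 17.0 in MC and 13.4, 12.6 and 13.2 in MM. These FPKM did not overlap, yet on the TMM scale the log2 fold change was -0.12 (SE 0.06, edgeR adjusted p = 0.0697), and with the library size alone it was -0.40 (adjusted p = 2.16e-08).

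Pmaip1 (encoding NOXA, a BH3-only protein that binds MCL1 and promotes its degradation) had the largest change of all members. In mouse it had 13, 10 and 10 counts in MC and 406, 483 and 406 in MM, an FPKM of 0.287, 0.224 and 0.210 against 7.65, 9.33 and 8.78. The MM libraries overlapped those of Bid in level, with a log2 fold change of 5.42 (SE 0.17, edgeR adjusted p = 1.08e-38), or 42.8-fold, higher than 99.1% of the mouse genes tested. The control level rests on 33 counts in all. On log2(FPKM + 1) the change was 2.95, a scale that compresses low values. In rat Pmaip1 was already at 18.2, 13.04 and 14.7 FPKM in RC and stood at 19.3, 19.3 and 20.0 in RM. RC1 lay close to the RM libraries, and the log2 fold change was 0.33 (SE 0.11, edgeR adjusted p = 0.0412). The rat call was lost without RC2, RC3, RM1, RM2 or RM3, with adjusted p values from 0.0951 to 0.134.

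Bid (a BH3-only protein that caspase-8 cleaves, linking death receptors to mitochondria) rose in both species and was the firmest rat result. Its rat FPKM was 8.15, 9.36 and 8.68 in RC and 19.4, 18.7 and 20.4 in RM. The RM libraries were well apart from RC, with a log2 fold change of 1.14 (SE 0.08, edgeR adjusted p = 4.09e-06), or 2.21-fold, a call kept without any 1 library and against a fold change of 1.5. In mouse the FPKM was 6.22, 6.64 and 6.13 in MC and 8.78, 7.79 and 7.99 in MM. The log2 fold change was 0.65 (SE 0.07, edgeR adjusted p = 3.49e-12), again without overlap.

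Bbc3 (encoding PUMA, a BH3-only protein known as a p53 target) rose modestly in mouse. Its FPKM was 13.8, 15.7 and 13.8 in MC and 16.6, 16.4 and 17.7 in MM. MC2 came closest to the MM libraries, and the log2 fold change was 0.51 (SE 0.06, edgeR adjusted p = 2.27e-10), or 0.23 with the library size alone (adjusted p = 0.00107).

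Bad (a BH3-only protein that growth factor signalling holds inactive by phosphorylation) showed no change that held under both scalings. Its rat FPKM was 26.9, 30.1 and 31.0 in RC and 27.6, 24.5 and 27.5 in RM, overlapping, with a log2 fold change of -0.16 (SE 0.09, edgeR adjusted p = 0.190). Without RC1 the fall passed the test (-0.24, adjusted p = 0.0318). In mouse the FPKM was 16.3, 15.6 and 16.3 in MC and 14.1, 15.9 and 14.5 in MM, also overlapping. The TMM log2 fold change was 0.17 (SE 0.07, edgeR adjusted p = 0.0198), lost without MC2 (adjusted p = 0.0787) or MM2 (0.148).

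Bcl2l11 (encoding BIM, a BH3-only protein that binds all anti-apoptotic members) was low and was called in neither species. Its rat FPKM was 1.30, 1.27 and 1.40 in RC and 1.57, 1.49 and 1.69 in RM. The RM libraries all lay above RC, but the log2 fold change of 0.24 did not pass (SE 0.13, edgeR adjusted p = 0.168). In mouse the FPKM was 2.20, 2.44 and 2.04 in MC and 1.89, 2.24 and 2.00 in MM, with overlap. The log2 fold change was 0.16 (SE 0.09, edgeR adjusted p = 0.107), passed without MC2 (0.23, adjusted p = 0.0428) or MM1 (0.22, adjusted p = 0.0446), and was -0.12 with the library size alone.

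**Figure D3:**
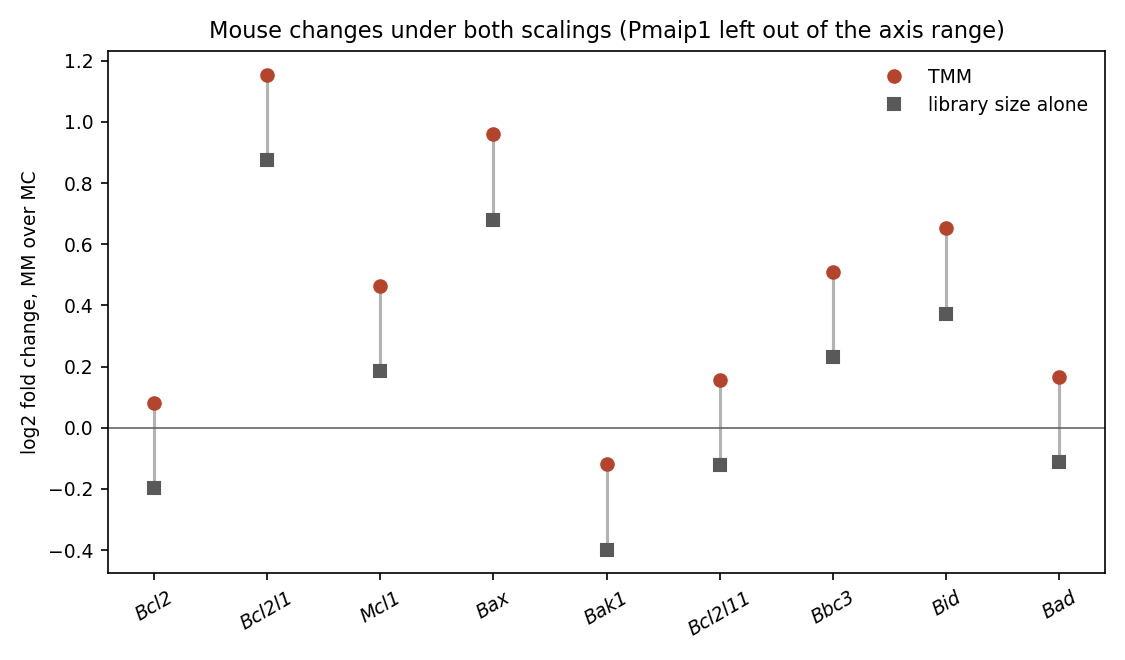
Mouse log2 fold change (MM over MC) of 9 members under TMM (red circles) and under the library size alone (grey squares), joined by lines; Pmaip1 is left out because it lies beyond the axis. Bcl2, Bcl2l11 and Bad cross 0 between the scalings, and Bcl2l1, Mcl1, Bax, Bbc3 and Bid stay above it.

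The difference between the species was tested directly for the 8 members with rows in both tables. The change was larger in mouse for 4 members and smaller in mouse for 1, beside 31.4% and 32.3% of the shared genes tested. Pmaip1 differed by 5.09 on the log2 scale (mouse minus rat, SE 0.23, edgeR adjusted p = 6.21e-12). Bcl2l1 differed by 1.45 (SE 0.09, edgeR adjusted p = 4.43e-10) and Bax by 1.23 (SE 0.11, edgeR adjusted p = 4.54e-08). For Bcl2l1 and Bax the difference is between a fall in rat and a rise in mouse, and for Pmaip1 between rises of unequal size. Bid rose less in mouse, by -0.49 (SE 0.11, edgeR adjusted p = 0.000938). Bad differed by 0.33 (SE 0.11, edgeR adjusted p = 0.0169), a call lost with the library size alone, where the difference was 0.03, and without RM2 (adjusted p = 0.0514) or MM2 (0.0520). No difference was called for Bcl2 (0.15, 95% interval -0.41 to 0.70), Bcl2l11 (-0.09, -0.40 to 0.23) or Bak1 (0.19, -0.01 to 0.38). The intervals still allow differences of the size seen for Bad, though for Bcl2l11 only in the opposite direction. Bak1 passed without RC1 (0.27, adjusted p = 0.00388), and Bcl2l11 with the library size alone (-0.38, adjusted p = 0.0322).

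**Figure D4:**
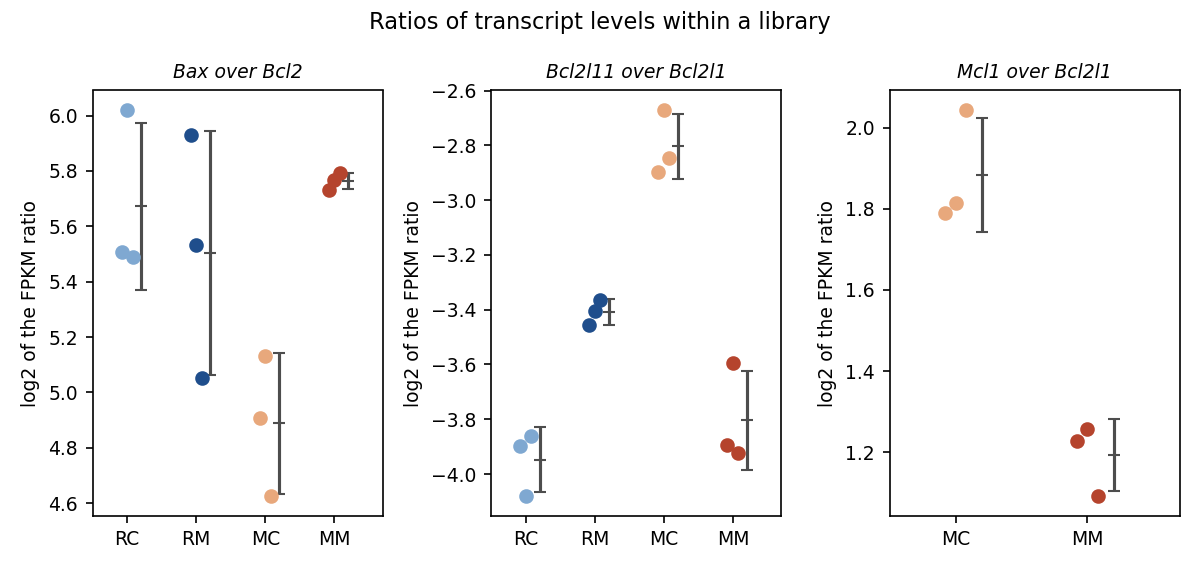
Log2 ratio of FPKM between pairs of members within each library, with points for libraries and the mean ± SD of 3 libraries beside them. Bax over Bcl2 separates the mouse groups and not the rat groups, and Bcl2l11 over Bcl2l1 is higher in RM than in RC but lower in MM than in MC.

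Ratios within a library do not depend on the scaling between libraries, and they are given as a description with no test. Bax over Bcl2, often quoted as a balance between killing and survival, was 4.89 ± 0.25 in MC and 5.76 ± 0.03 in MM on the log2 scale (SD, n = 3), a rise of 0.88 without overlap. In rat it was 5.67 ± 0.30 in RC and 5.50 ± 0.44 in RM, with overlap, and the sign of the difference turned without RC2 (0.01) or RM3 (0.06). The rat ratio is limited by the low counts of Bcl2.

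The ratio of Bcl2l11 to Bcl2l1 (a BH3-only activator over one of its binding partners) was -3.95 ± 0.12 in RC and -3.41 ± 0.05 in RM (SD, n = 3), higher by 0.54. In mouse it was -2.80 ± 0.12 in MC and -3.80 ± 0.18 in MM, a change of -0.9995. Neither pair of groups overlapped, with every RM library above every RC library and every MM library below every MC library. Mcl1 over Bcl2l1 in mouse was 1.88 ± 0.14 in MC and 1.19 ± 0.09 in MM, so Mcl1 remained the higher of both in every mouse library by a smaller margin.

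In mouse, 5 members share exonic bases with another gene of GENCODE M21, and without the strand such reads cannot be told apart. The shared part was 25.5% of the exonic length for Bak1 (mostly Ggnbp1), 20.5% for Bad (Gpr137), 17.7% for Bid (Bcl2l13), 12.2% for Bax (Gm45808, on the same strand) and 6.09% for Bcl2 (D630008O14Rik). Bcl2l1, Mcl1, Bcl2l11, Bbc3 and Pmaip1 had no such overlap. The gene lengths behind the FPKM equalled the GENCODE M21 exonic length for 8 members. They were 2007 in place of 2558 bases for Bad and 2646 in place of 2732 for Pmaip1. A fixed length scales the levels and cancels in a fold change. The exons counted for Bad and Pmaip1 may differ from GENCODE M21, so the overlap stated for them may not hold.

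For the rat genes, 8 members had at least 1 promoter window of 300 bases in the RefSeq table of build GRCr8, which gave 11 windows. A loose form of the NF-κB site, GGG and CC with 5 bases of any kind between, searched on both strands, stood in 6 of these windows (Bak1, Bcl2l1, Bcl2l11, Bid, Mcl1 and Pmaip1), and in 47.3% of all windows of this length. The AP-1 letters TGANTCA stood in 0 of the 11, where 7.33% of all windows hold them. These matches describe the windows and name no site in use.

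Around the 10 members, 7 lists of other apoptosis genes were counted in the same fits. In rat, 14 of the 52 genes tested were higher in RM and 7 lower, and in mouse 28 of 54 were higher in MM and 19 lower, with a median log2 fold change of 0.14 in both, beside 18.3% and 16.8% of all rat genes and 37.4% and 37.7% of all mouse genes. These shares over all genes are also the background for the TMM counts of each list below. The mouse counts with the library size alone stand beside 3697 higher and 8077 lower of the 14774 mouse genes tested. With the library size alone, the 28 higher in mouse became 16, and most of the lists had more genes called lower than with TMM. Of the 50 tested for the difference, 19 changes were larger in mouse and 13 smaller, beside 31.4% and 32.3% of all shared genes. With the library size alone, 11 were larger and 23 smaller. Over all 10912 shared genes tested, that scaling gave 2189 larger and 5398 smaller, so the balance turned there as well.

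Among other BCL2 family genes, 2 of the 6 tested in rat were lower and 4 not called, and 2 of 5 were higher and 3 lower in mouse (1 and 3 with the library size alone). Bcl2l2 (encoding BCL-W, an anti-apoptotic relative of BCL-XL) also moved in opposite directions, with log2 fold changes of -0.24 in rat (SE 0.07, edgeR adjusted p = 0.0237) and 1.34 in mouse (SE 0.04, edgeR adjusted p = 2.77e-37). The rat call of Bcl2l2 was lost without RC3, RM1, RM2 or RM3. The BH3-only gene Bmf fell in both, by 0.82 in rat and 0.69 in mouse on the log2 scale, and the effector relative Bok fell by 0.67 in mouse.

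Among mitochondrial partners, 2 of 11 were higher and 9 not called in rat, and 5 were higher and 4 lower in mouse (4 and 7 with the library size alone). Bnip3, a mitophagy receptor with a BH3-like stretch, went from 53.7 to 112 FPKM in rat and from 19.0 to 186 in mouse, log2 fold changes of 1.04 and 3.57. Its relative Bnip3l changed by 0.48 and 2.58. Vdac1, a channel of the outer membrane, rose by 1.35 in mouse and was at 0.01 in rat (edgeR adjusted p = 0.962).

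Of the apoptosome and caspase genes, 2 of 11 were higher and 2 lower in rat. In mouse 4 of 12 were higher and 5 lower (3 and 7 with the library size alone). The TMM counts lie near the shares over all genes tested, 18.3% higher and 16.8% lower in rat and 37.4% and 37.7% in mouse. Apaf1, the apoptosome scaffold, rose by 0.27 in rat and 0.51 in mouse. The rat call of Apaf1 was lost without any 1 of RC2, RC3, RM1, RM2 and RM3. Casp6 rose by 1.31 in mouse and was not tested in rat.

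Of the 5 inhibitors of apoptosis proteins, 4 were higher and 1 not called in rat, and in mouse 1 was higher and 4 lower. Birc3 (encoding cIAP2) rose in both, by 1.58 in rat and 2.25 in mouse. Birc2 (cIAP1) changed by 0.84 in rat and -0.31 in mouse, and Birc5 (survivin, which also acts in cell division) by 0.61 and -2.50. Xiap changed by 0.40 and -0.11, near the threshold, with calls lost in rat without RC2, RC3, RM2 or RM3 and in mouse without MC2, MC3, MM2 or MM3 or by DESeq2.

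In the death receptor arm, 3 of 7 were higher and 4 not called in rat, and 6 of 8 were higher and 1 lower in mouse (3 and 2 with the library size alone). Cflar (encoding c-FLIP, which blocks caspase-8) rose by 0.75 in rat and 1.54 in mouse. Casp8 itself, the protease that cleaves BID, rose by 0.59 in rat and fell by 0.22 in mouse, the latter lost without MC2 or MM2 or by DESeq2. Tnfrsf10b and Tnfrsf1a, both receptor genes, changed by 0.40 and 0.28 in mouse, and with the library size alone Tnfrsf1a was at 0.00462 (adjusted p = 0.908).

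Of the transcription factors upstream of the family, 3 of 7 were higher and 2 lower in rat, and 7 of 8 were higher and 1 lower in mouse (4 and 2 with the library size alone). The NF-κB gene Nfkb1 rose by 1.20 in rat and 1.90 in mouse, and Rela rose by 1.52 in mouse against 0.03 in rat (edgeR adjusted p = 0.812). Foxo3, a factor known to drive Bcl2l11 and Bbc3, rose by 0.39 and 1.55, and Atf4, a stress factor known to drive Pmaip1, changed by -0.57 and 0.55. For MCL1 protein turnover, 1 of 5 genes was lower and 4 not called in rat, and in mouse 3 were higher and 1 lower (with the library size alone, 2 were lower and 3 not called). The ubiquitin ligase genes Huwe1 and March5 changed by 0.24 and 0.28 in mouse, calls lost with the library size alone, and Btrc fell by 0.35 in rat and 0.44 in mouse.

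**Figure D5:**
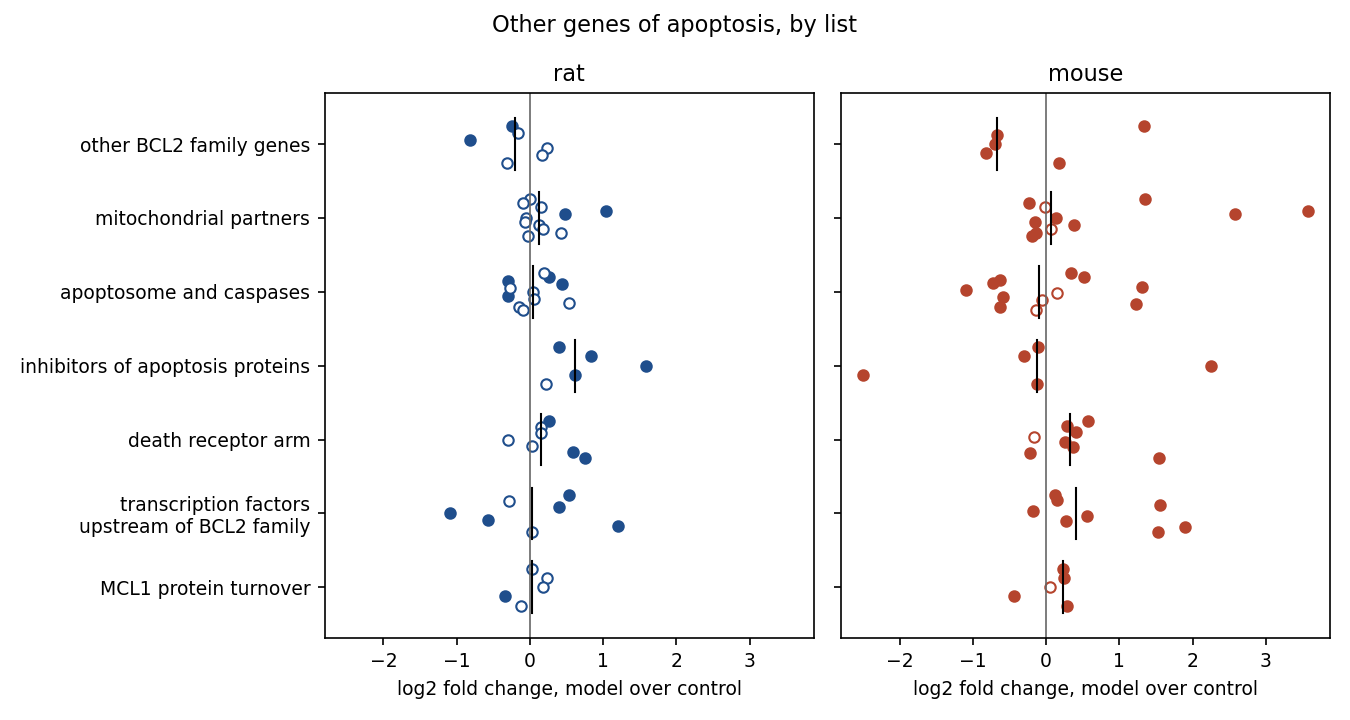
Log2 fold change of model over control (TMM scale) for every tested gene of the 7 other apoptosis lists, rat at left and mouse at right, with filled points for an adjusted p under 0.05 and a vertical tick at the median of each list. In rat the inhibitors of apoptosis proteins lie between 0.23 and 1.58, whereas in mouse they run from -2.50 to 2.25.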

How the data were processed

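RNA-seq was measured in 12 libraries of passage 1 articular chondrocytes, 3 for each of RC, RM, MC and MM. The submitters' processing notes name HISAT2, HTSeq 0.11.2 and the builds Rnor_6.0 and GRCm38; whether reads were counted by strand is not given in these sources. The authors deposited raw read counts per Ensembl gene for each species and FPKM computed from those counts. Each deposited FPKM matched its count divided by 1 length per gene and by the library total within 0.1% for 100% of the 73953 rat and 78551 mouse values of at least 20 counts, so the FPKM carry no scaling beyond the library total.

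Counts were analysed with edgeR 4.0.16 in R 4.3.3: genes with low counts were removed by filterByExpr, libraries were scaled by TMM (a factor that centres the bulk of genes), and the quasi-likelihood test (glmQLFTest) was run per species with Benjamini-Hochberg adjustment over the 13303 rat or 14774 mouse genes tested. A gene was called at an adjusted p under 0.05. The difference between the species (log2 fold change of mouse less that of rat) was tested in 1 fit of the 12 libraries over 10912 genes shared by symbol, each species keeping its own library sizes and TMM factors. The criteria of the study were also applied. Its fold change above 0.85 was read here as an absolute log2 fold change from 0.85 upwards, which the methods do not spell out, with p under 0.05 before adjustment and 1 library or more with an FPKM from 1 upwards. Levels and ratios are FPKM without a test. The scripts were tested on simulated data.

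The members and the gene lists were chosen with earlier results of these data known. Of each other list, every gene is counted, and the text names up to 3 with the lowest adjusted p in rat or mouse, and any gene called in opposite directions in the species. A result under this rule is not reported here. The mouse genes were placed with GENCODE M21, and rat promoter windows came from the RefSeq table of build GRCr8. Alternatives were DESeq2 1.42.0, DESeq2 size factors, library size alone, no filter, limma 3.58.1 on log2(FPKM + 1) and log2(FPKM + 0.1), glmTreat against a fold change of 1.5, a block for the replicate number, separate fits per species and leaving out each library. No replicate pair agreed within sampling noise (chi-square over its degrees of freedom from 1.90 to 27.8). This check cannot tell separate animals or cultures from separate preparations of shared cells. Each library was counted as a separate sample because the study describes independent samples.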

Additional observations from a re-analysis of the deposited data

Results flagged for a closer look

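For 5 members the change with IL-1β differed between the species in the test of the difference itself, given as the log2 fold change in mouse minus that in rat (edgeR, all 12 libraries). Pmaip1 differed by 5.09, from 0.33 in rat to 5.42 in mouse. Bcl2l1 differed by 1.45, from -0.30 to 1.16, and Bax by 1.23, from -0.27 to 0.96. Bid differed by -0.49, from 1.14 in rat to 0.65 in mouse. Bad differed by 0.33, from -0.16 to 0.17, and with the library size alone by 0.03. Species and table cannot be told apart in this design, since each species was mapped to its own genome and counted with its own annotation. All groups had 3 libraries, so no outlier test of single libraries was run, but each library was left out in turn. Without RC1, 3243 rat genes were higher and 3008 lower, in place of 2429 and 2238. Leaving out any other rat library lowered both counts.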

How the results depend on the processing

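With 3 libraries a group, an exact permutation test of 1 gene could not go below 0.1, so the calls rest on the spread shared across genes. Leaving out 1 library each gave 1 to 2 members higher and 1 to 4 lower in rat, and 6 to 8 higher and 0 lower in mouse. For the difference it gave 3 to 5 members larger and 1 smaller in mouse. In the other lists it gave 11 to 17 genes higher and 4 to 10 lower in rat, the fewest lower without RC3 or RM1.

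In rat, 1 member was higher and 0 lower with glmTreat or the criteria of the study, and the other lists gave 3 and 1. Over all rat genes, glmTreat gave 558 higher and 469 lower, and the criteria 617 and 519, in place of 2429 and 2238. Leaving out 1 library each, Bcl2 ranged from -0.36 to 0.072, Vdac1 from -0.048 to 0.025, Rela from -0.051 to 0.080 and Huwe1 from -0.037 to 0.066. Vdac1 was at -0.00012 with DESeq2 size factors and -9.99e-05 with DESeq2. The rat ratio of Bax to Bcl2 ranged from -0.38 to 0.059, above 0 without RC2 or RM3.

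In mouse, 3 members were higher with glmTreat or the criteria, and 1 was lower (Bak1) with the library size alone or limma. The other lists gave 16 higher with the library size alone or limma, 11 higher and 3 lower with glmTreat, and 11 and 2 with the criteria, in place of 28 and 19. Over all mouse genes, 5521 were higher and 5564 lower, with 3697 and 8077 for the library size alone, 3639 and 7975 for limma on log2(FPKM + 1), 3635 and 7969 on log2(FPKM + 0.1), 2610 and 2697 for glmTreat, and 1862 and 1919 for the criteria. With the library size alone, limma on log2(FPKM + 1) and on log2(FPKM + 0.1) in turn, Bcl2 was at -0.20, -0.11 and -0.18, Bcl2l11 at -0.12, -0.083 and -0.12, Bad at -0.11, -0.11 and -0.11, and Huwe1 at -0.044, -0.043 and -0.044.

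For the difference and the same settings in turn, Bcl2 was at -0.15, -0.067 and -0.10, Bak1 at -0.11, -0.092 and -0.11, Apaf1 at -0.047, -0.046 and -0.051, Tnfrsf1a at -0.16, -0.16 and -0.16, and Huwe1 at -0.087, -0.087 and -0.090. Bmf was at -0.17 with the library size alone and -0.12 on log2(FPKM + 0.1). The members smaller in mouse numbered 2 with the library size alone or log2(FPKM + 1). The other lists gave 11 larger and 23 smaller with the library size alone, 12 and 22 on log2(FPKM + 1) and 11 and 23 on log2(FPKM + 0.1), in place of 19 and 13. Over all shared genes these settings gave 2189 and 5398, 2214 and 5326, and 2167 and 5351, in place of 3429 and 3530. FPKM carry no TMM factor, so limma on FPKM shares the scaling by library size, and glmTreat and the criteria demand a larger change by construction.

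Same-numbered libraries did not deviate together (r from -0.10 to 0.08 in rat and 0.00124 to 0.0149 in mouse), so no shared effect of the number was seen. With 3 libraries a group, this cannot settle whether control and model samples were prepared as pairs. With the replicate number as a block, 2 members were higher and 3 lower in rat, 7 and 0 in mouse, and the difference was called for 4 and 1, with 2436 rat genes higher and 2098 lower. The block ended the rat calls of Bcl2l2 (edgeR adjusted p = 0.0501) and Apaf1 (0.0556) and no call of a member.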
